A study of Drosophila melanogaster with 33 samples.

Results

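The subject here is a set of 8 Drosophila genes whose products silence and destroy maternal mRNA: smg, brat, pum, cup, tral, me31B, bel and twin. They were chosen by name, from textbook roles in maternal mRNA repression and decay, with earlier results of these data known. They are 8 of the 16407 genes in each of the 2 deposited tables. Of the 8 genes, 7 had values above 0 and were tested; cup was listed at 0 in all 33 libraries. Each was followed through 4 stages of early embryogenesis and 3 RNA fractions.

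A fly egg is laid with a large stock of mRNA made by the mother, and the embryo's own genome is switched on only gradually. RNA-binding proteins such as Smaug, Brain tumor and Pumilio recognise sites in maternal mRNAs and recruit 4E-binding proteins, RNA helicases and the CCR4-NOT deadenylase, which block translation and shorten poly(A) tails. Removal of many maternal transcripts in the embryo depends on this machinery, whose own mRNAs are themselves loaded into the egg.

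Wild-type Oregon R embryos received an injection of 5-ethynyl uridine (5-EU), a clickable uridine analogue built into RNA made after the injection. They were staged by morphology as nuclear cycle (NC) 7-9, NC 9-10, syncytial blastoderm or cellular blastoderm, and biotinylated labelled RNA was captured on streptavidin beads. Every preparation was divided into an input (total RNA), a flow-through (unbound RNA) and an eluate (captured RNA, with whatever unlabelled RNA stayed on the beads). By the titles, the poly(A) table held 1 preparation at NC 7-9 and 2 at each later stage, 21 libraries. The rRNA-depleted table held, also by the titles, 1 preparation per stage, 12 libraries. All groups were of the same genotype and all were injected, so there was no unlabelled control among the samples used here. The 5-EU concentration was 250 mM, except that the second syncytial and second cellular poly(A) preparations were given 50 mM; dose and preparation cannot be told apart there. The labels do not say how many embryos were pooled, nor that preparations came from separate collections. The p-values therefore measure the spread between preparations only. For each gene 1 spread was estimated over all groups of poly(A) libraries together, so its standard error is not that of the compared libraries alone. Fractions of a preparation varied together but were counted as separate libraries, so p-values between stages may be too small.

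Levels are length-corrected shares of a library in parts per 1000000 (ppm), made from the deposited RPKM values. Read depth was estimated at 1.93 M to 36.9 M reads (M, 1000000) per library. Because levels are shares, less RNA per nucleus, fewer nuclei of a type and a larger share taken by other genes cannot be told apart in these whole embryos. The stage labels fitted the maternal and the zygotic blastoderm markers. The summed level of 4 maternal germ line transcripts (bcd, nos, osk and vas) was 1721 to 2135 ppm in NC 9-10 poly(A) inputs and 265 to 266 ppm in cellular inputs, and that of 6 zygotic blastoderm genes was 80.7 to 115.4 ppm and 2518 to 2946 ppm. Of 5 follicle cell markers, 4 were listed at 0 in every poly(A) input, and their sum reached at most 0.175 ppm. The 2 cellular inputs differed in markers of later embryos. Yolk and hemocyte markers (srp and gcm) summed to 17.1 ppm in one and 75.9 ppm in the other, and 4 markers of older tissues to 5.51 and 20.95 ppm. Whether these 2 preparations differed in age was not tested. In the rRNA-depleted table, 2 libraries stood apart. The library labelled NC 9-10 input correlated at 0.997 (Pearson r, log2 values over 7970 genes) with the second-preparation NC 9-10 input of the poly(A) table, and the library labelled syncytial input correlated at 0.991 with the first-preparation syncytial input of the poly(A) table. Their correlations with the closest rRNA-depleted library were 0.950 and 0.937, and the other 10 libraries reached at most 0.956 with any poly(A) library. Of those 10, the cellular and syncytial eluates were also nearer to a poly(A) eluate of their own stage (0.897 and 0.827) than to any rRNA-depleted library (0.771 and 0.822). Summed small nuclear and nucleolar RNA was 21.01 and 24.2 ppm in the libraries labelled NC 9-10 input and syncytial input. It was 178 to 6700 ppm in the other 10 rRNA-depleted libraries and 0 to 151 ppm in poly(A) libraries. Results that rest on those 2 inputs are given with them, and for brat, pum, twin and me31B also without them.

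The gene cup encodes an eIF4E-binding protein that blocks the cap of repressed mRNAs and works with Smaug and with the Trailer hitch and Me31B proteins. Its mRNA level could not be read from either table, since cup was listed at 0 in all 33 libraries, every NC 7-9 input among them. In the BDGP6.54 annotation, cup (FBgn0000392) lies on chromosome 2L from 6663664 to 6674780 on the plus strand and has 4306 exonic bases. All of them, 100% of its exonic length, were shared on the same strand with CG34310 (FBgn0085339), which spans the same interval and was also listed at 0 throughout. Of 311 protein-coding genes whose exons were wholly shared on the same strand, 290 (93.2%) were listed at 0 in every library, against 1316 of 13553 other protein-coding genes (9.71%). How the authors' counting treated shared exons is not given in the sources used here, and its part in these zeros was not tested. No fold change is given for cup.

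**Figure D1:**
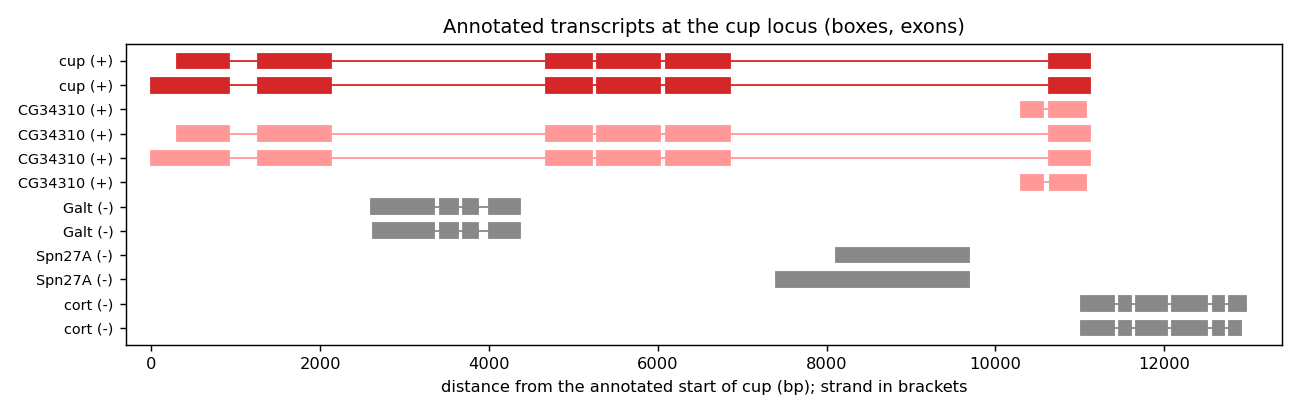
Annotated transcripts at the cup locus, drawn to scale by distance in base pairs from the annotated start of cup; boxes are exons, thin lines introns, and the strand is in brackets. The exons of both cup transcripts are repeated in transcripts of CG34310 on the same strand, while Galt, Spn27A and cort lie on the other strand.

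The other 7 genes had no exon shared on their own strand. On the opposite strand, 454 exonic bases of twin (9.61%) were shared with cav and 151 bases of brat (1.18%) with its neighbours. Whether reads were assigned by strand is not given in the sources used here, so a part of the twin and brat levels could come from those neighbours. In the same annotation smg lies on chromosome 3L (8990317 to 8997989, minus strand), tral on 3L (12515059 to 12520954, plus), pum on 3R (9066343 to 9237682, minus), bel on 3R (8654975 to 8660761, minus) and twin on 3R (24196893 to 24221965, minus). The genes brat (19133816 to 19179758, plus) and me31B (10239341 to 10242172, plus) lie on 2L. All levels below are from the sum of a gene's transcripts, from 2 annotated for me31B and bel to 9 for tral.

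In total poly(A) RNA the 7 genes spanned a wide range of levels. In the NC 7-9 input, tral (3252 ppm) and me31B (3157 ppm) came first, above 99.8% of tested genes, followed by smg (1322 ppm), bel (325 ppm), twin (183 ppm), brat (139 ppm) and pum (126 ppm). At NC 9-10, where there were 2 inputs, the ranges of me31B, smg, bel and twin did not overlap one another; those of brat and pum overlapped each other, and that of tral reached from inside the bel range to above smg. The plot of levels by stage and fraction shows every library.

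**Figure D2:**
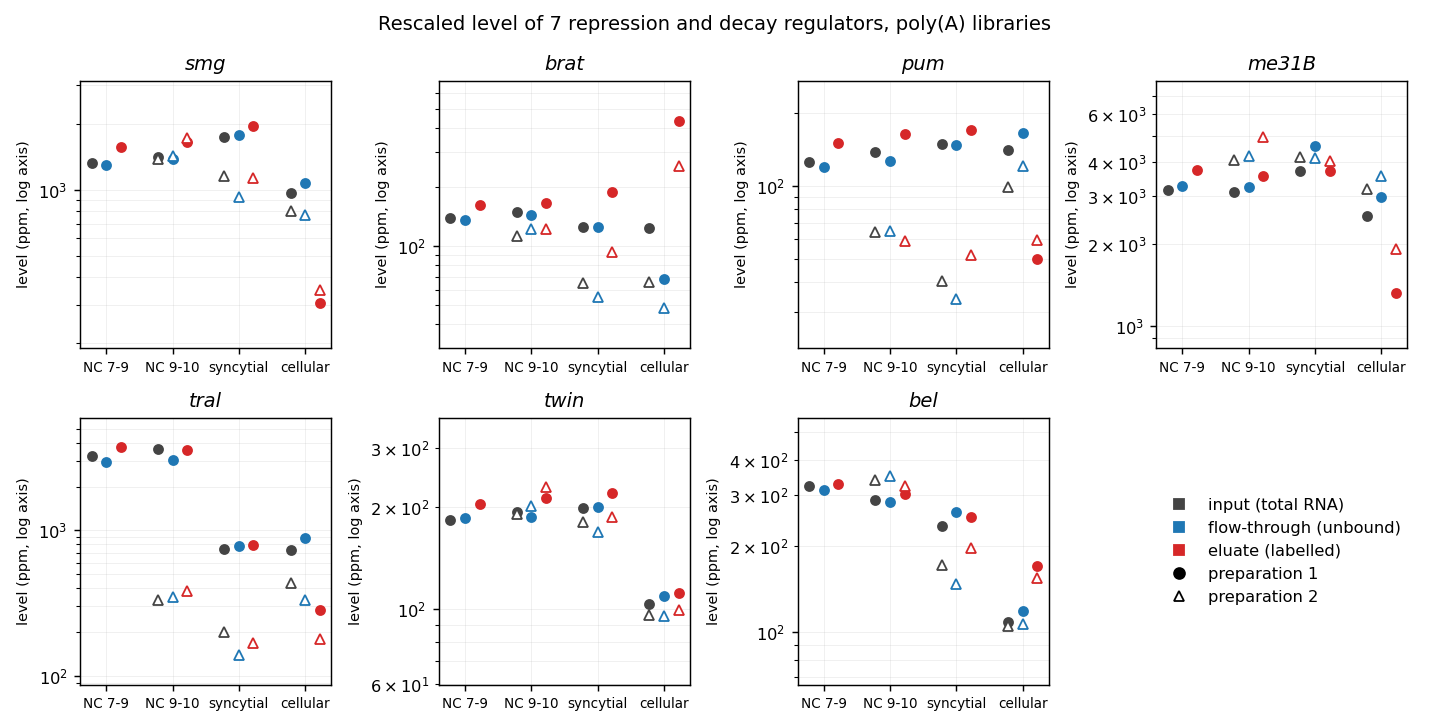
Level of 7 regulators in ppm (log axis, a different range in each panel) in the 21 poly(A) libraries, by stage; colour marks the fraction, filled circles the first and open triangles the second preparation. The cellular eluates of smg and me31B lie below all of their other libraries, those of brat lie above all of its other libraries, and tral splits by preparation at NC 9-10.

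Of the RNA-binding proteins, Smaug binds stem-loops in maternal mRNAs such as Hsp83 and nos and recruits the deadenylase; its protein appears after egg activation by translation of the stored mRNA. The smg input levels were 1322 ppm at NC 7-9, 1405 and 1378 ppm at NC 9-10, 1736 and 1155 ppm at syncytial blastoderm, and 965 and 798 ppm at cellular blastoderm (first and second preparation in each pair). Both cellular inputs were lower than every earlier input. The difference between cellular and NC 9-10 inputs was log2 −0.66 ± 0.35 (SE, n = 2 against 2; limma, adjusted p = 0.134) and did not pass, and with libraries scaled to their total alone it was −1.22 (adjusted p = 0.0172), when 27.7% of all genes passed as lower.

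Brain tumor is a repressor that binds hunchback and many other maternal mRNAs. The brat inputs were at 139 ppm at NC 7-9, 149 and 113 ppm at NC 9-10, 125 and 64.9 ppm at syncytial and 123 and 66.0 ppm at cellular blastoderm. The groups overlapped, with the second preparation the lower one at each of the last 3 stages, and the cellular against NC 9-10 difference was −0.52 ± 0.49 (adjusted p = 0.411).

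Pumilio recognises the Nanos response element of hunchback together with Nanos and Brain tumor. The pum inputs were at 126 ppm at NC 7-9, 138 and 64.4 ppm at NC 9-10, 149 and 40.5 ppm at syncytial and 141 and 99.1 ppm at cellular blastoderm. The 2 preparations differed 2.14-fold at NC 9-10 and 3.69-fold at syncytial blastoderm, and the groups overlapped.

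Me31B is a DEAD-box helicase, the fly DDX6, that coats repressed mRNAs. Its inputs were at 3157 ppm at NC 7-9, 3091 and 4077 ppm at NC 9-10, 3703 and 4182 ppm at syncytial and 2530.35 and 3175 ppm at cellular blastoderm. The cellular and NC 9-10 inputs overlapped, with a difference of −0.32 ± 0.31 (adjusted p = 0.416), and me31B stayed above 99.3% of tested genes in every input. Belle, another DEAD-box helicase that joins the repressor complex, was at 325 ppm at NC 7-9, 290 and 339 ppm at NC 9-10, 234 and 171 ppm at syncytial and 108 and 105 ppm at cellular blastoderm. The NC 7-9 input lay between the NC 9-10 inputs, and the inputs of the last 3 stages did not overlap, with lower levels at each later one.

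Trailer hitch is an LSm-domain scaffold protein that binds Me31B and Cup. The tral inputs were at 3252 ppm at NC 7-9, 3599 and 330 ppm at NC 9-10, 742 and 201 ppm at syncytial and 736 and 434 ppm at cellular blastoderm. The first NC 9-10 input was close to NC 7-9, while the second was 10.9-fold lower and inside the range of the later stages. A gap as large between those 2 inputs was found in 95 of 8744 tested genes (1.09%). The same preparations differed 8.76-fold in flow-through and 9.40-fold in eluate, so the gap was shared by all fractions of a preparation. The standard error of each tral comparison between stages was therefore 1.46, and none passed.

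The gene twin encodes CCR4, a catalytic subunit of the CCR4-NOT deadenylase. Its inputs were at 183 ppm at NC 7-9, 193 and 191 ppm at NC 9-10, 198 and 181 ppm at syncytial and 103 and 96.3 ppm at cellular blastoderm. The preparations agreed within 1.098-fold at each stage, and both cellular inputs lay below every earlier one.

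Between stages, 2 of the 7 genes passed the test in input RNA, bel and twin, and both fell. From NC 9-10 to cellular blastoderm 21.3% of all genes tested passed as lower and 27.6% as higher, and the median gene lay at 0.31. In that comparison bel fell by 1.55 ± 0.26 on the log2 scale (adjusted p = 0.000475) and twin fell by 0.94 ± 0.17 (adjusted p = 0.000629), while pum (0.32, adjusted p = 0.773) and tral (−0.95, adjusted p = 0.621) did not pass. From syncytial to cellular blastoderm, where 13.9% of genes passed as lower, twin fell by 0.92 (adjusted p = 0.00151) and bel by 0.90 (adjusted p = 0.0214); the other 5 lay between −0.69 for smg and 0.59 for pum (adjusted p of 0.154 to 1). The bel call was lost, with adjusted p of 0.078 to 0.173, on leaving out either cellular input or the first syncytial input. From NC 9-10 to syncytial blastoderm 7.56% of genes passed, and none of the 7 did; bel (−0.64) had the smallest adjusted p, 0.221, and the other 6 lay between −1.496 for tral and 0.15 for me31B (adjusted p of 0.725 to 1). These comparisons share libraries and are not independent of one another.

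Flow-through RNA, which did not bind the beads, gave the same 2 calls from NC 9-10 to cellular blastoderm, where 23.2% of genes passed as lower. There bel fell by 1.47 (adjusted p = 0.000624) and twin by 0.92 (adjusted p = 0.000672). The bel flow-throughs were at 284 and 350.0 ppm at NC 9-10 and at 119 and 107 ppm at cellular blastoderm, and those of twin at 187 and 201 ppm and at 109 and 95.5 ppm, so neither gene's groups overlapped. The differences of the other 5 genes were −0.62 for smg, −1.19 for brat (adjusted p = 0.0642), 0.64 for pum, −0.19 for me31B and −0.93 for tral. With libraries scaled to their total alone, smg (−1.41), brat (−1.97) and me31B (−0.97) passed as lower as well, when 30.7% of genes did.

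**Figure D3:**
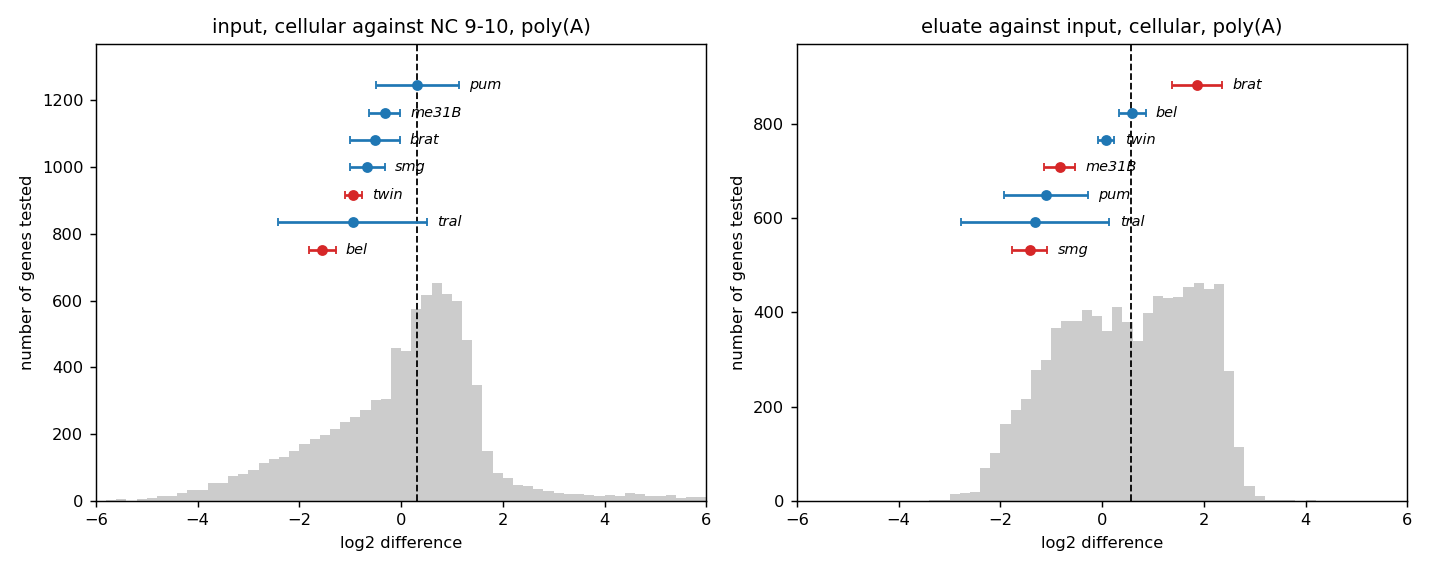
Log2 differences of all 8744 tested genes (grey bars, number of genes per bin of 0.2; values beyond the axis are not drawn) with the 7 regulators above them as estimate ± SE, red where the adjusted p was below 0.05 and blue where it was not; the dashed line is the median gene. Left, cellular against NC 9-10 inputs; right, eluate against input at cellular blastoderm, where brat lies to the right of the median gene and smg and me31B to its left.

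In eluates the same genes took different courses once the blastoderm was cellular. At NC 9-10 the limma test did not tell eluates from inputs, with 0% of genes past the threshold, and no unlabelled control was used. The part of unlabelled maternal RNA in the NC 9-10 eluates, and so in the falls from them, was not tested. Against NC 9-10 eluates, 4 of the 7 passed as lower in cellular eluates (smg, me31B, twin and bel), when 17.8% of all genes did and 39.4% passed as higher. The smg eluates were at 1565 ppm at NC 7-9, 1641 and 1721 ppm at NC 9-10, 1952 and 1133 ppm at syncytial and 304 and 351 ppm at cellular blastoderm, and the level fell by 2.36 ± 0.35 on the log2 scale from NC 9-10 (adjusted p = 0.000103). The me31B eluates were at 3743 ppm, 3560 and 4957 ppm, 3701 and 4044 ppm and then 1321 and 1906 ppm, and the level fell by 1.40 ± 0.31 (adjusted p = 0.00216). In both genes the cellular eluates lay below every other library of the poly(A) table. The other eluate levels that passed were those of twin, which fell by 1.06 (adjusted p = 0.000159), and of bel, which fell by 0.95 (adjusted p = 0.00827). The differences of pum (−0.84, adjusted p = 0.408) and tral (−2.37, adjusted p = 0.189) did not pass.

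The brat eluates went the other way. They were at 162 ppm at NC 7-9, 166 and 122 ppm at NC 9-10, 188 and 93.5 ppm at syncytial and 433 and 256 ppm at cellular blastoderm. Both cellular eluates lay above every other poly(A) library. The difference was 1.22 ± 0.49 from NC 9-10 (adjusted p = 0.0513), short of the threshold. From syncytial to cellular blastoderm, 31.7% of genes passed as higher and 13.9% as lower; brat rose by 1.32 (adjusted p = 0.0452), smg fell by 2.18 (adjusted p = 0.00036), me31B by 1.29 (adjusted p = 0.00539) and twin by 0.94 (adjusted p = 0.000692). The brat call was lost with total scaling (adjusted p = 0.0775), with no filter on low values (0.0669), and without the first cellular (0.262) or the second syncytial eluate (0.276). Those of bel (−0.46), pum (−0.77) and tral (−0.69) did not pass. From NC 9-10 to syncytial eluates 20.8% of genes passed and none of the 7 did, with differences between −1.67 for tral and −0.067 for pum (adjusted p of 0.236 to 0.995); with total scaling bel passed as lower (−0.97, adjusted p = 0.0214), when 14.6% of genes did.

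Eluate against input within a stage asks how much of a gene's poly(A) RNA was captured, relative to other genes. At NC 7-9, with 1 preparation and no test, the 7 ratios lay between 1.02-fold for bel and 1.19-fold for pum, all near the median gene at log2 0. At NC 9-10 they lay between 0.916-fold (pum, second preparation) and 1.25-fold (smg, second preparation). None of the 7 passed there, and 0% of genes did with limma (398 genes at an unadjusted p below 0.05, and 28 with the preparation as a block). At syncytial blastoderm 11.9% of genes passed and none of the 7 did, with differences between −0.077 for tral and 0.55 for brat (adjusted p of 0.639 or more). There brat had the highest ratio of the 7 in both preparations, 1.49-fold and 1.43-fold. With the preparation as a block, when 19.2% of genes passed, brat was the only one of the 7 to pass (log2 0.55, adjusted p = 0.0149).

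At cellular blastoderm the 7 genes spread apart. The brat eluate was 3.49-fold and 3.83-fold its input in the first and second preparation, and brat passed as higher with log2 1.87 ± 0.49 (adjusted p = 0.007), when 39.0% of genes passed as higher. The smg ratios were 0.316-fold and 0.441-fold, and smg passed as lower with −1.42 ± 0.35 (adjusted p = 0.00474); those of me31B were 0.522-fold and 0.600-fold, with −0.84 ± 0.31 (adjusted p = 0.0382). Of all genes 17.3% passed as lower. The median gene lay at log2 0.57 in this comparison, so the differences from it were 1.31 for brat and −1.99 for smg. On the values as deposited, where the median gene lay at −1.87, they were 1.06 and −2.24.

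The calls for me31B and brat were lost on leaving out single libraries, while their differences kept their sign. Without the first cellular eluate me31B was at −0.57 (adjusted p = 0.219) and brat at 1.49 (0.0709), and without the second cellular input at −0.67 (0.2) and 1.43 (0.0734). The adjusted p of me31B was 0.0592 without the first cellular input and 0.077 with no filter on low values. Both passed with the preparation as a block (adjusted p = 0.02 and 1.91e-05). The smg call held in each of those alternatives.

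The other 4 genes did not pass there. The tral ratios were 0.388-fold and 0.415-fold and the pum ratios 0.359-fold and 0.606-fold, below 1 in both preparations, with log2 −1.32 ± 1.46 (adjusted p = 0.467) and −1.10 ± 0.82 (adjusted p = 0.276). The bel ratios, 1.56-fold and 1.46-fold, were at the median gene (0.60 ± 0.26, adjusted p = 0.0706), and the twin ratios were 1.08-fold and 1.03-fold (0.08 ± 0.17, adjusted p = 0.714). With the preparation as a block, which takes out the gaps between preparations, pum (adjusted p = 0.000668), tral (0.000311) and bel (0.0026) passed as well, so that 6 of the 7 did and twin did not, when 71.6% of genes passed. Summed markers of older embryo tissues were at 24.8 to 113 ppm in cellular eluates and 5.51 to 20.95 ppm in cellular inputs, with all 4 above 0, and the 6 zygotic blastoderm genes were at 15081 to 15892 ppm against 2518 to 2946 ppm; the part of either in these ratios was not tested.

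**Figure D4:**
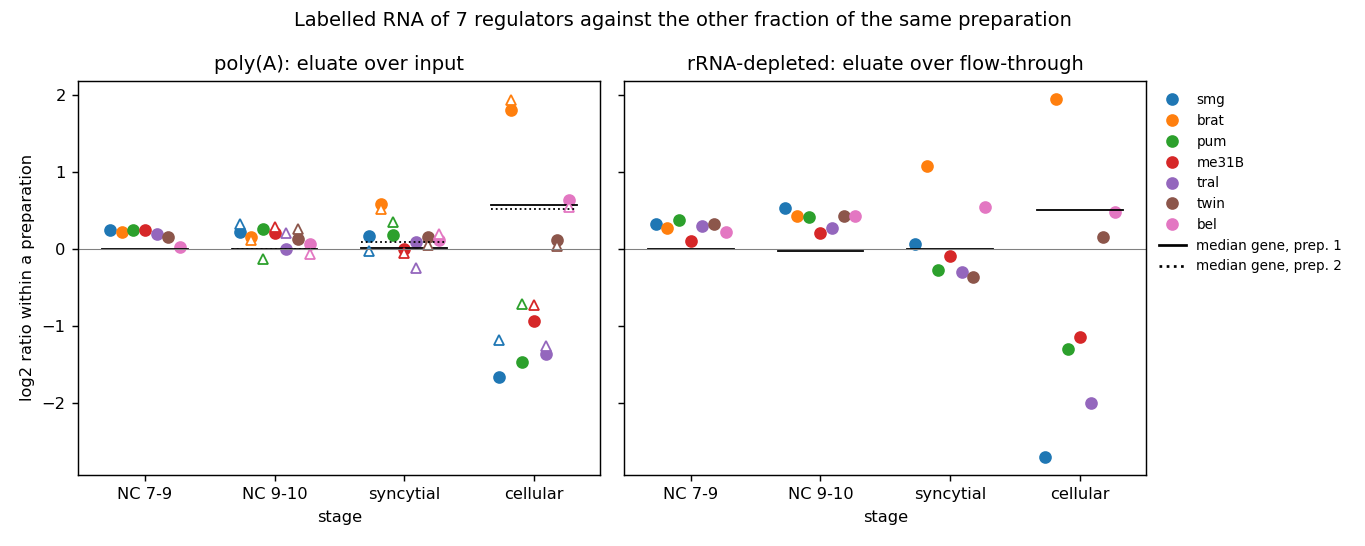
Log2 ratio of the eluate to another fraction of the same preparation, by stage, for 7 regulators (colours; filled circles, first preparation; open triangles, second); black lines are the median gene of each preparation. Left, eluate over input in poly(A) libraries; right, eluate over flow-through in rRNA-depleted libraries. The genes lie close together up to NC 9-10 and separate at cellular blastoderm, with brat highest and smg, tral, pum, me31B and twin below the median gene in both panels.

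Flow-through against input showed the complement for brat. At cellular blastoderm the brat flow-through was at 68.0 and 48.4 ppm, 0.555-fold and 0.737-fold its input, while smg was at 1.11-fold and 0.965-fold and pum at 1.18-fold and 1.22-fold. The eluate was thus 6.29-fold and 5.20-fold the flow-through for brat, and 0.285-fold and 0.457-fold for smg. No test was run on these ratios.

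Whether enrichment itself differed between cellular blastoderm and NC 9-10 was tested as an interaction. There 35.7% of genes passed, 8.52% as lower, and the median gene shifted by 0.59. Of the 7 genes smg passed, with a ratio that was lower by log2 −1.69 ± 0.49 at cellular blastoderm (adjusted p = 0.0205). It was 1.17-fold and 1.25-fold at NC 9-10 against 0.316-fold and 0.441-fold later. The call missed the threshold, with adjusted p of 0.052 to 0.0615, without any 1 of 5 libraries: the first cellular eluate, the first cellular input, the second NC 9-10 eluate, or either NC 9-10 input. On the values as deposited, where the median gene lay at 1.597 and 29.7% of genes passed, smg was at 0.0589 (adjusted p = 0.979), still −1.54 relative to that gene, and brat passed instead (3.50, adjusted p = 0.0498). On the rescaled values the brat difference was 1.74 ± 0.70 (adjusted p = 0.0703), that of me31B −1.08 ± 0.44 (adjusted p = 0.0758) and that of twin −0.12 ± 0.23 (adjusted p = 0.717). With the preparation as a block, when 56.5% of genes passed, 6 of the 7 did: brat (adjusted p = 0.000512) and bel (0.60, adjusted p = 0.0219) with higher ratios at cellular blastoderm, and smg, tral (−1.42, adjusted p = 0.00304), pum (−1.16, adjusted p = 0.00614) and me31B (adjusted p = 0.0384) with lower ones.

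The rRNA-depleted table gives a separate selection of RNA, with 1 preparation per stage. In eluates over the 4 stages in order, smg was at 894, 1114, 652 and 97.0 ppm and brat at 110, 133, 182 and 253 ppm. The flow-throughs of smg were at 714, 771, 624 and 639 ppm, and those of brat at 90.9, 98.8, 85.5 and 64.7 ppm. At cellular blastoderm the eluate was 0.153-fold the flow-through for smg, 0.249-fold for tral, 0.406-fold for pum and 0.453-fold for me31B, against 3.87-fold for brat, 1.40-fold for bel and 1.12-fold for twin. The order of the 7 was the same from brat through bel to twin as in poly(A) RNA. Fractions within 1 stage were single libraries here and were not tested, and no stage difference was tested in this table.

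**Figure D5:**
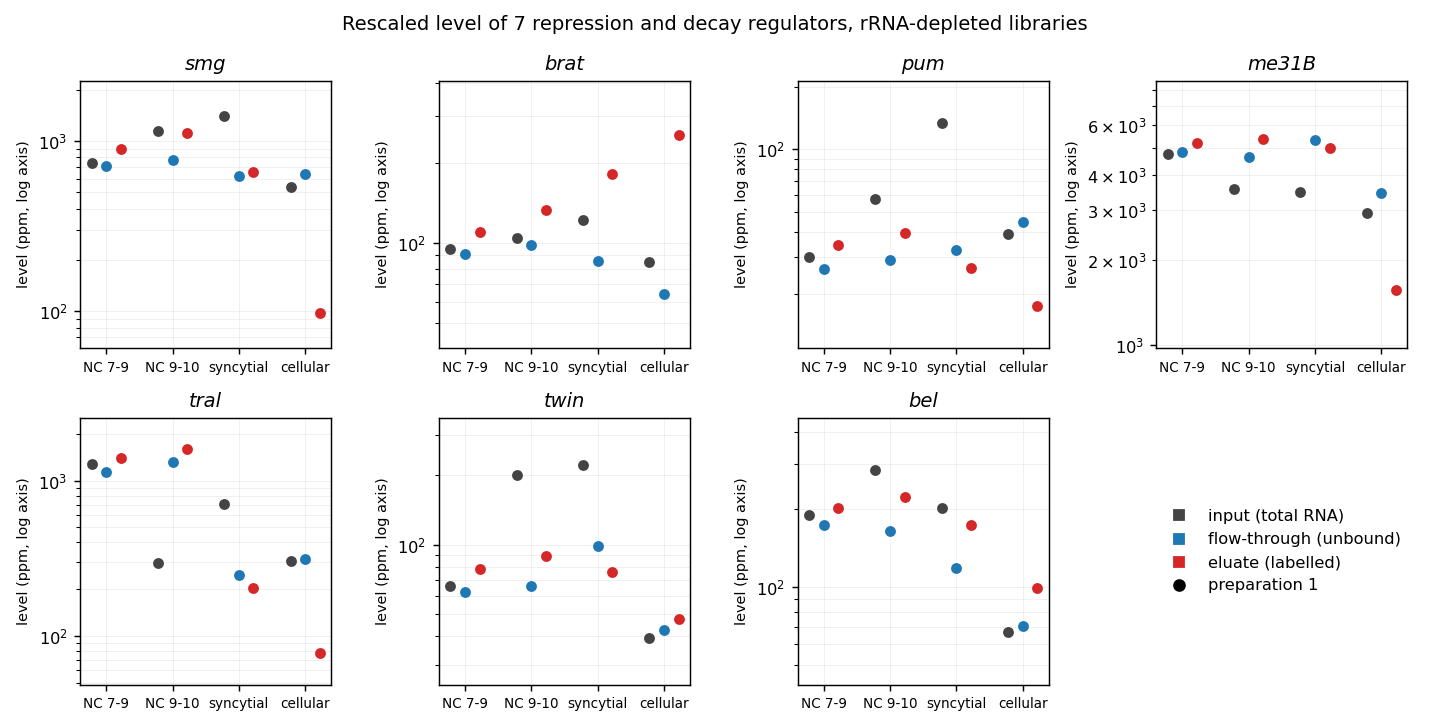
Level of 7 regulators in ppm (log axis, a different range in each panel) in the 12 rRNA-depleted libraries, 1 per stage and fraction; colour marks the fraction. The inputs labelled NC 9-10 and syncytial, which resemble poly(A) libraries, stand away from the flow-through of the same stage, most of all in twin, tral and pum.

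The 2 inputs that stood apart shaped the members' values. For twin the 4 inputs were at 66.0, 201, 222 and 39.5 ppm over the stages, while the flow-throughs were at 62.6, 66.2, 98.6 and 42.6 ppm; the 201 and 222 ppm are close to the poly(A) inputs of those stages. For tral the inputs were at 1275, 295, 712 and 305 ppm and the flow-throughs at 1139.9, 1320.2, 248 and 314 ppm. At NC 9-10 the tral input was close to the second poly(A) input of that stage (330 ppm), while the rRNA-depleted eluate was at 1590 ppm. Whether that input came from the same preparation as the eluate and flow-through was not tested, so eluate against input may cross preparations there. Over all stages, eluate against input gave no call among the 7 and 0% among all genes with limma (smallest adjusted p 0.0889; at an unadjusted p below 0.05 there were 522 higher and 555 lower genes). The brat difference was 0.67 ± 0.29 (adjusted p = 0.364) with those inputs and 0.80 (adjusted p = 0.796) without them, and the pum difference was −0.93 ± 0.44 (adjusted p = 0.364) and −0.32 (adjusted p = 0.818). For twin it changed sign, from −0.54 ± 0.35 (adjusted p = 0.416) to 0.21 (adjusted p = 0.815), and for me31B from 0.08 ± 0.48 (adjusted p = 0.933) to −0.24 (adjusted p = 0.878). With those inputs the differences of smg, tral and bel were −0.83 ± 0.50, −0.30 ± 0.64 and 0.02 ± 0.23 (adjusted p = 0.393, 0.802 and 0.96). Their signs did not change without those inputs.

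Eluate against flow-through, which does not use those inputs, passed in 0.467% of genes and in none of the 7. The brat difference over all stages was 0.93 ± 0.29 (adjusted p = 0.183), higher in 4 of 4 stages. The smg difference was −0.45 ± 0.50 (adjusted p = 0.603), higher in the first 3 stages and lower at cellular blastoderm. The remaining genes lay between −0.43 for tral and 0.42 for bel (adjusted p of 0.3 to 0.835).

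The members' profiles over the 21 poly(A) libraries fell into no single pattern. The closest pairs by Pearson correlation of log2 levels were twin with bel (r = 0.87), smg with me31B (r = 0.82), smg with twin (r = 0.79) and pum with tral (r = 0.78), and the most opposed pair was brat with me31B (r = −0.60). Those libraries share preparations and fractions, so r describes them only. Among the 8744 tested genes the profiles most like smg were those of LpR2 (r = 0.98), CG42788 (r = 0.97) and SLO2 (r = 0.96), and most like brat those of Pak3, pcx (both r = 0.98) and Plp (r = 0.97). For me31B they were CG18769, tor (both r = 0.97) and Rab32 (r = 0.96), and for pum CG43867 (r = 0.95), SKIP (r = 0.94) and CG7028 (r = 0.93). For tral they were wapl (r = 0.99), Unr and Cam (both r = 0.98); for twin Mnn1, tacc and Blm (all r = 0.99); and for bel tapas, Nxf3 and CG4562 (all r = 0.98).

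The partners of these regulators were counted in a list of 43 genes: CCR4-NOT and PAN subunits, decapping and exonuclease factors, other translational repressors with their eIF4E and poly(A) partners, and the genes that switch the repressors on or turn them over. Of these, 42 were tested; BicC was listed at 0. From NC 9-10 to cellular inputs 7 passed as higher, 14 as lower and 21 did not pass, with a median of −0.67 beside 0.31 for all genes, of which 27.6% passed as higher and 21.3% as lower. The 6 with the largest change all fell: orb (−4.45), exu (−4.03), bru1 (−3.22) and nos (−2.77), regulators of localised maternal mRNAs, gnu (−3.55), a subunit of the Pan gu kinase, and LSm1 (−2.81 ± 1.01, adjusted p = 0.0375), a decapping activator. The orb input went from 136 ± 10.7 ppm (SD, n = 2) to 5.26 ± 0.638 ppm and that of nos from 466 ± 111 ppm to 66.9 ± 10.0 ppm.

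Around twin, the deadenylase subunits did not move as 1 unit in those inputs. The scaffold Not1 (0.82, adjusted p = 0.0303), Rga (0.69, adjusted p = 0.00638) and Rcd-1 (0.70, adjusted p = 0.0439) rose, and Not3 (−1.13, adjusted p = 0.0443), Not11 (−1.46, adjusted p = 0.0444) and twin itself fell. The median gene lay at 0.31 there. The calls of these partners were not checked under other scalings or with libraries left out, and Not10 and CNOT4 of the same list are not given here. Pop2, the other catalytic subunit, was at −0.11 ± 0.19 (adjusted p = 0.663). Not1 went from 307 ± 21.96 to 543 ± 49.0 ppm. PAN2, a deadenylase of another complex, rose by 1.28 (adjusted p = 0.00108), and gw, the fly GW182 protein of microRNA silencing, by 1.01 (adjusted p = 0.00148).

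In eluate against input at cellular blastoderm 6 of the 42 partners passed as higher, 12 as lower and 24 did not, with a median of −0.48 beside 0.57 for all genes, of which 39.0% passed as higher and 17.3% as lower. The 6 with the largest change were png (−2.23), plu (−2.00) and gnu (−1.45), the 3 subunits of the Pan gu kinase that permits translation of smg mRNA after egg activation, bru1 (−1.52), Not11 (1.91) and slmb (1.82), an F-box protein that takes part in removing repressor proteins. The slmb eluates were at 400.4 ± 3.15 ppm against inputs at 113 ± 2.65 ppm. At syncytial blastoderm 1 passed as lower, when 0.698% of all genes did, and at NC 9-10 none did.

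A mixed list of 13 genes, classical targets of maternal mRNA repressors and their companions, was counted too. Of these, nos, plu and gnu also stand in the partner list. Since plu and gnu are subunits of the Pan gu kinase, the counts are not of Smaug, Brain tumor and Pumilio targets alone. From NC 9-10 to cellular inputs none passed as higher, 9 as lower and 4 did not, with a median of −1.05, when 21.3% of all genes passed as lower. Hsp83, the model Smaug target, went from 3327 ± 499 to 408 ± 22.1 ppm, and fell by 3.02 ± 0.24 (adjusted p = 2.28e-06). CycB, a Pumilio target, fell by 0.64 ± 0.19 (adjusted p = 0.0149), and hb, bound by Brain tumor and Pumilio, was at 0.35 ± 0.67 (adjusted p = 0.699).

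In eluate against input at cellular blastoderm 2 of these 13 passed as higher and 8 as lower, when 39.0% and 17.3% of all genes did. Hsp83 was higher (1.73 ± 0.24, adjusted p = 0.000207), with eluates at 1360.2 ± 147 ppm against inputs at 408 ± 22.1 ppm, and so was hb (2.45 ± 0.67, adjusted p = 0.00847). The 8 lower ones were pgc (−2.07), plu (−2.00), osk (−1.69), gnu (−1.45), twe (−1.41), alphaTub67C (−1.37), bcd (−1.30) and nos (−1.10). CycB, CycA and stg did not pass. No test compared the lists or the members with one another.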

How the data were processed

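Fly embryos injected with 5-EU were measured in 33 libraries; per the labels' protocols, these were made with a SMARTer Stranded kit. The submitters' processing notes name STAR, HTSeq and dm6 without versions, and the sources used here give no filter, strand setting, annotation or scaling. The authors deposited both tables as RPKM. Low values show that each is a length-corrected read number multiplied by a factor particular to its library, with 1 added. Here 1 was taken off, each library was brought to a sum of 1000000, and size factors (median of ratios) were applied. Depth (1.93 M to 36.9 M reads; M, 1000000) was estimated from the steps between low values, so no counting interval is given. Genes at 1 ppm or more in at least 2 libraries were tested: 8744 poly(A) and 8131 rRNA-depleted genes. Values were tested as log2(value + 1), so fold changes of low genes are understated, with limma 3.58.1 in R 4.3.3 (empirical Bayes, mean trend, Benjamini-Hochberg over all genes tested, threshold 0.05). One fit held the 21 poly(A) libraries with a mean per stage and fraction; another held the 12 rRNA-depleted libraries with terms for fraction and stage. The tables were never tested together, and 13 comparisons were made. Ratios per library, levels and figures were made in Python 3.11.15 with pandas 2.3.3 and matplotlib 3.10.9.

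Titles tie the eluate, flow-through and input of a preparation together. Across genes the deviations of a preparation's fractions from their group means correlated at 0.511 to 0.929. The main poly(A) fit did not pair them, and values with the preparation as a block are printed beside the calls they changed. In the rRNA-depleted fit the stage term also stands for the preparation, as far as the titles hold. At NC 9-10 the rRNA-depleted input was closest to the second poly(A) input (0.997) and the eluate to the first poly(A) eluate (0.941). The stage term would not take out a difference between preparations there. The 2 libraries of each group correlated at 0.921 to 0.973 and no gene above 0 had identical values in both. Of 16407 symbols 16330 (99.5%) were found in the BDGP6.54 annotation, which supplies coordinates and exons. The rule names all 8 members in every comparison; cup, at 0, has no test, and where none passed the others are given by their range. Of the list of partners, the 6 largest changes past the threshold are named for input RNA between NC 9-10 and cellular blastoderm and for eluate against input at cellular blastoderm, and others as examples chosen after their values were seen; the 3 most alike profiles are given per member. Members and lists were chosen with earlier results of these data known. Alternatives, read for the members and not for the listed partners and targets, were other scalings, pseudocounts and filters, leaving out each library, and the block. Leaving out 2 rRNA-depleted inputs was added after seeing the data. A marker list of pole cells was also measured. Transcript ends and introns were not analysed here.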

Additional observations from a re-analysis of the deposited data

Results flagged for a closer look

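The ratio of eluate to input for smg differed between stages by a test of the difference itself: it was lower at cellular blastoderm than at NC 9-10 by log2 −1.69 ± 0.49 (limma, adjusted p = 0.0205), with 1.17-fold and 1.25-fold at NC 9-10 against 0.316-fold and 0.441-fold at cellular blastoderm. On the rescaled values no other of the 7 genes passed with all libraries and no block; me31B did without the second cellular eluate (adjusted p = 0.0415) and brat without the first cellular input (0.0499). The smg call was itself lost on leaving out any 1 of several libraries, as given above. On the values as deposited brat passed (3.50, adjusted p = 0.0498) and smg did not (0.0589, adjusted p = 0.979). Groups held at most 2 libraries, too few to look for single libraries far from the rest.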

How the results depend on the processing

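Counts below are of the 7 genes that passed. On the values as deposited, without rescaling, the median gene lay at −4.28 (NC 9-10), −3.73 (syncytial) and −1.87 (cellular blastoderm) in eluate against input, at 1.597 for the interaction, and at −5.21 and −4.80 in rRNA-depleted eluate against input and against flow-through. On those values 34 of 91 differences of the 7 genes changed sign. The 21 that passed on either set of values were, for eluate against input, at NC 9-10 smg −4.17, brat −4.30, pum −4.37, me31B −4.20, tral −4.34 and twin −4.23; at syncytial blastoderm smg −3.84, brat −3.35, pum −3.63, twin −3.81 and bel −3.76; at cellular blastoderm brat −0.80, twin −2.60 and bel −2.08; smg 0.0589 in the interaction; brat −4.71, me31B −5.32 and bel −5.37 in rRNA-depleted eluate against input; and brat −4.05, twin −4.84 and bel −4.57 against flow-through. Relative to the median gene smg stood at −1.54 in the interaction, and brat stayed above it and smg below it at cellular blastoderm. Counts on those values, each with the share of all genes that passed, were 7 (77.6%) at NC 9-10, 7 (73.3%) at syncytial and 5 (50.8%) at cellular blastoderm for eluate against input, and 7 (85.3%) and 7 (84.5%) in the rRNA-depleted comparisons. They were 4 (45.7%) for cellular against NC 9-10 inputs, 5 (45.1%) for flow-throughs, 1 (28.2%) for cellular against syncytial inputs, and 0 for cellular eluates against syncytial (26.5%) or NC 9-10 (42.7%) eluates. Total scaling turned the sign of 13 of 91 differences, leaving out 1 library that of 52 of 392 and leaving out the 2 rRNA-depleted inputs that of 2 of 7, none of them called before or after.

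With total scaling 6 differences of the 7 genes passed that had not before, not all of them named here, and 1 that had passed did not. The count was 5 for flow-throughs and 1 for syncytial against NC 9-10 eluates, and smg passed for cellular against NC 9-10 inputs. With the replicate block it was 1 at syncytial blastoderm, 6 at cellular blastoderm and 6 for the interaction, and it changed no other call. Leaving out 1 library in turn gave counts of 1 to 2 for cellular against syncytial inputs, 1 to 3 for eluate against input at cellular blastoderm and 0 to 2 for the interaction. Pseudocounts of 0.1 and 5, no filter, no stage term and leaving out the 2 rRNA-depleted inputs moved no count of the 7 by more than 1.5 times.

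Comparisons at 1 stage rest on 2 preparations, and those at NC 7-9 on 1. Gaps between preparations (tral, pum) hide changes of up to several fold. RNA amounts per embryo cannot be read from these shares.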
